A study of Mus musculus with 24 samples.

Results

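The genes described here encode the enzymes that take glucose to pyruvate in mouse skeletal muscle, that build and break down glycogen, that shuttle glycerol 3-phosphate and that pass pyruvate into the mitochondrion. They were chosen by name, as a list of 34 gene symbols, and all 34 were found among the 54532 genes counted. The list holds 6 genes of upper glycolysis (Hk1, Gpi1, Pfkm, Pfkl, Aldoa, Tpi1), 7 of lower glycolysis (Gapdh, Pgk1, Pgam1, Pgam2, Eno1, Eno3, Pkm) and 3 that set the flow between fructose 6-phosphate and fructose 1,6-bisphosphate (Fbp2, Pfkfb1, Pfkfb3). It also holds 9 glycogen genes (Gyg, Gbe1, Ugp2, Pygm, Phka1, Phkb, Phkg1, Ppp1r3a, Ppp1r3c), 3 glycerol 3-phosphate dehydrogenases (Gpd1, Gpd2, Gpd1l) and 6 genes of pyruvate entry and oxidation (Mpc1, Mpc2, Pdha1, Pdhb, Dlat, Pdk2).

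RNA of the left gastrocnemius, a calf muscle made mostly of fast fibres in mice, was sequenced from wild-type C57/BL6 mice, with 24 samples in 6 groups of 4. Controls of either sex received saline of pH 7.2 ± 0.1 into the muscle, as 2 injections of 20 µl given 5 days apart, and had neither acid nor contraction. Sedentary pain mice received acid of pH 5.0 ± 0.1 by the same scheme, with 6 min of electrically driven contraction of the muscle directly ahead of the second injection. Active pain mice had running wheels for 8 weeks and then went through that same pain procedure. The labelled time is 24 h for all 24 samples, the labels used here give no age, and no group ran without the pain procedure. Acid, contraction and running alone therefore cannot be told apart. All 6 groups received injections into the muscle that was sampled. The titles number the samples of a group 1 to 4 and do not say what the number stands for, so p-values measure the spread between these samples.

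Skeletal muscle keeps glycogen as a local store of glucose. Phosphorylase kinase, an enzyme of several subunits, switches on glycogen phosphorylase when calcium or adrenaline signals arrive, and the glucose phosphate released feeds glycolysis. Pyruvate then leaves as lactate or enters the mitochondrion through a carrier and is oxidised by the pyruvate dehydrogenase complex. Several of these steps are run by muscle forms of enzymes that other cells make in other forms.

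Libraries held 17612139 to 34039699 counts. Values below are CPM, counts scaled to library size, here adjusted with trimmed mean of M-values (TMM) factors. Markers of fast fibres were read in all 6 groups, with the summed CPM of 12 markers at 202391 to 295446 in female controls and 140396 to 275559 in female sedentary pain. Other tissue components differed between samples. The summed CPM of 12 macrophage and monocyte markers was 84.7, 92.5, 143 and 185 in the female controls and 417, 697, 3293 and 4085 in female sedentary pain, and 11 of the 12 markers rose there. The sum was 190.3 to 421 in female active pain, 68.6 to 132 in male controls, 793, 130.1, 193 and 411 in male sedentary pain and 202 to 467 in male active pain. Summed over 8 adipocyte markers, the level was 441, 280.4, 5730.1 and 2767 CPM in the female controls and 196 to 677 CPM in female sedentary pain, and 7 of the 8 fell. Mitochondrial genes took 3.85% of the counts in replicate 2, 5.86% in replicate 3 and 2.75% in replicate 4 of female sedentary pain, 4.53% in male sedentary pain replicate 1 and 5.97% in male active pain replicate 2, against 6.67% to 12.6% in the other 19 samples. Counts of calls and list medians of the male comparisons are given with and without the 2 males named here. A bulk library cannot tell fewer cells of a type from less RNA per cell.

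**Figure D1:**
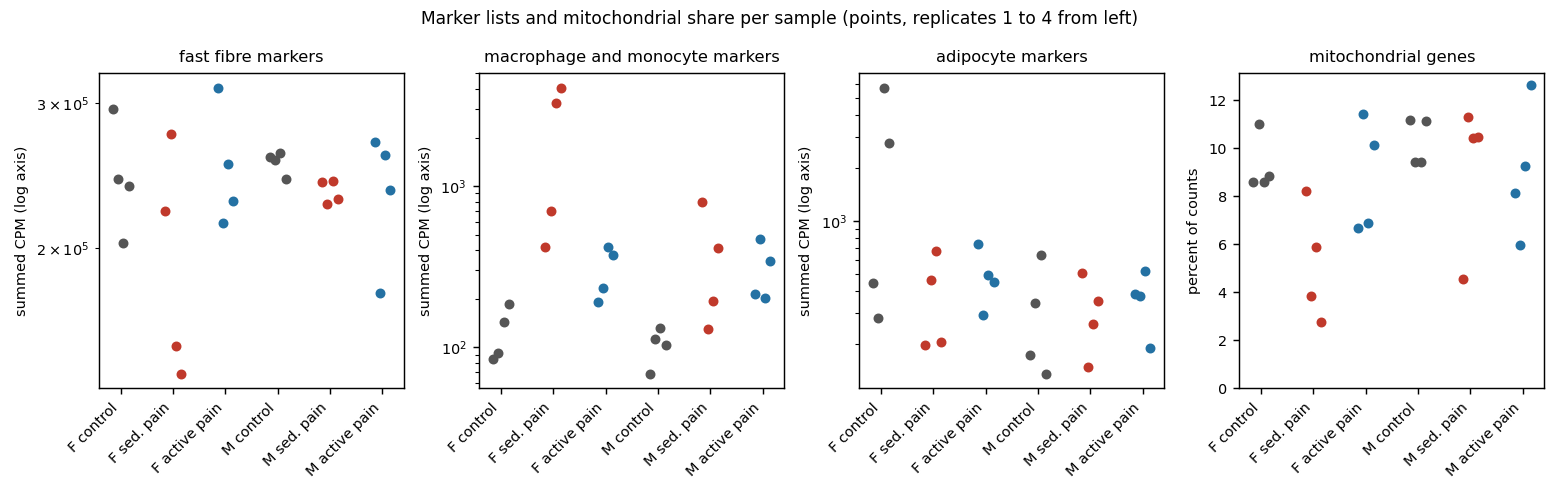
Each point is 1 sample, with replicates 1 to 4 from left in each group (F, female; M, male; sed., sedentary). The first 3 panels show the summed CPM of marker lists on log axes and the last the percent of counts from mitochondrial genes; macrophage and monocyte markers reach 4085 CPM in female sedentary pain replicate 4, and adipocyte markers 5730.1 CPM in female control replicate 3.

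Levels spanned more than 3 orders of magnitude. Set per kilobase of annotated exon, as a rough scale between genes, the mean over 24 samples was highest for Aldoa, the muscle aldolase, at 6506 CPM per kb. Eno3, the muscle enolase, followed at 3701, Pgam2, the muscle phosphoglycerate mutase, at 3184, Pygm, the muscle glycogen phosphorylase, at 2785, and Pfkm, the muscle phosphofructokinase, at 1250.3 CPM per kb. Across samples Eno3 ran from 2129 to 5512 and Pgam2 from 1788 to 5660 CPM per kb, so the order of these neighbours is not set beyond their spread. At the other end, Pgam1 (3.94), Pfkl (2.69) and Hk1 (1.68 CPM per kb), forms that many other cells make, were the lowest of the 34. The length joins all annotated exons of a gene, 8532 bases for Hk1, and can exceed that of any 1 transcript, which lowers the value. Genes that share sequence with other annotated genes, such as Pgam1 (39.7% of 100-base stretches) and Gapdh (18.2%), may lose reads. In the 8 control samples the highest value was at most 1.68 times the lowest for 24 of the 34 genes, and it was 7.44 times the lowest for Pfkl, the liver-type phosphofructokinase. As a percent of unscaled library totals, the 34 genes summed to 5.88% ± 0.269 (SD, n = 4) of a female control library. The female share was 5.58% ± 1.04 with sedentary pain and 6.15% ± 0.871 with active pain. In males it was 5.44% ± 0.266 among controls, 5.6% ± 0.501 with sedentary pain and 5.75% ± 0.519 with active pain. On TMM-scaled libraries the order in males turned, with means of 5.84%, 5.63% and 5.72%, while the female means were 5.99%, 5.13% and 6.33%. These differences were not tested.

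Sedentary pain against control in females asks what the pain procedure without running was accompanied by. The 3 glycerol 3-phosphate dehydrogenases, 3 of 9 glycogen genes (subunits of phosphorylase kinase), 3 of 6 genes of pyruvate entry and oxidation and Gapdh fell, and the housekeeping hexokinase Hk1 rose. Aldoa, Eno3, Pgam2, Pygm and Pfkm, the most abundant of the list per kilobase, did not pass the test. In the edgeR quasi-likelihood test adjusted over all genes, 11 of the 34 passed, 1 higher and 10 lower. Of the 14511 genes tested, 33.5% passed, 19.6% higher and 13.9% lower, so the share of the list that passed, 32.4%, is near the background, and the share that was lower, 29.4%, is above it. The median log2 fold change of the 34 genes was -0.39, and that of all genes tested was -0.02. Markers of muscle fibres had negative values too, with a median of -0.33 for the 12 fast fibre markers (11 below 0, 1 passed) and -1.48 for the 7 slow fibre markers (all below 0, none passed). Their part in the result was not tested. A correction for GC content and length shifts the all-gene median to -0.14 and the genes called higher from 58.5% to 43.9% of calls. With that correction the list's median was -0.65, and 15 members were called, 1 higher and 14 lower, against 35.7% of all genes, of which 2907 of 5180 were lower.

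**Figure D2:**
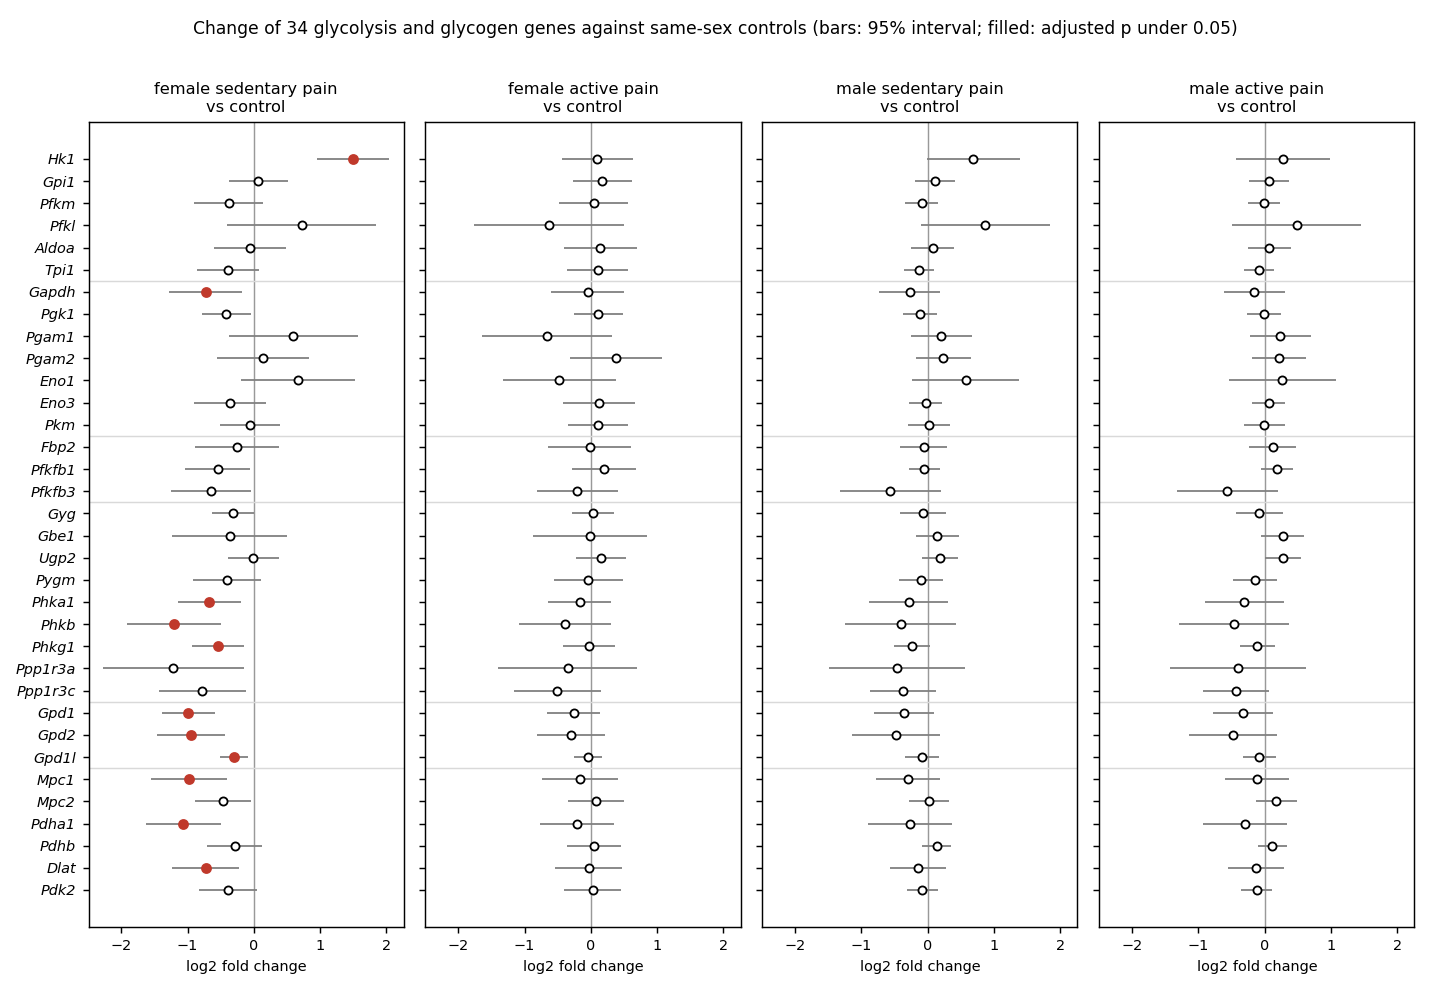
Log2 fold change of each of the 34 genes (rows, grouped by role) against controls of the same sex, with its 95% interval; filled points have an adjusted p under 0.05. The 11 filled points are all in female sedentary pain, with Hk1 the only one to the right of 0.

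Among the upper glycolysis genes, Hk1 (ENSMUSG00000037012, chr10:62268855-62379908 of GRCm38, minus strand) encodes the hexokinase that most cells use to trap glucose. Its CPM was 10.01, 10.6, 9.8 and 12.1 in the female controls and 16.1, 25.3, 38 and 42.3 in female sedentary pain. All 4 sedentary pain samples were above all 4 controls, and they differed among themselves more than the controls did. Hk1 rose 2.82-fold (95% interval 1.93 to 4.12; log2 fold change 1.5 ± 0.25 SE, adjusted p = 0.00302 by edgeR), the only member called higher. The samples with the most Hk1, replicates 3 and 4, also had the most macrophage and monocyte marker reads, 3293 and 4085 CPM, and the part of these cells in the Hk1 level was not tested. The 250 bases upstream of the farther of its 2 RefSeq starts lie at chr10:62379909-62380158 (GRCm38.p6, minus strand, in no annotated exon). They are shown, 5′ to 3′, since Hk1 is the only one of the 34 called higher. None of the motifs searched in promoters and given further on was found in its windows.

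Hk1: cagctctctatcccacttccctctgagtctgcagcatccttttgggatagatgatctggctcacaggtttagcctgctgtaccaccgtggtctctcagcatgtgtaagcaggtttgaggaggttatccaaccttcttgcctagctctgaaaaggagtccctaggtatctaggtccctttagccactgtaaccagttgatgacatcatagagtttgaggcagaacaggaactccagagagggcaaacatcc

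The muscle and liver forms of phosphofructokinase, the committed step of glycolysis, had different patterns, and neither passed the test. Pfkm was read at 5016, 4420.3, 3551 and 4051 CPM in the female controls and 3999, 4396, 2513 and 2323 CPM in female sedentary pain (log2 fold change -0.38 ± 0.24 SE, adjusted p = 0.216). Replicates 3 and 4 lay below all controls, and replicates 1 and 2 within their range. Pfkl was read at 10.2, 13.3, 39.5 and 30.8 and 13.2, 29, 36.9 and 77.9 CPM (log2 fold change 0.72 ± 0.51 SE, adjusted p = 0.279). The controls were split, with replicates 3 and 4 high, and these are also the controls with the most adipocyte marker reads, 5730.1 and 2767 CPM, whose part in the Pfkl level was not tested. Of the other 3, Gpi1, which turns glucose 6-phosphate into fructose 6-phosphate, had a mean of 1018 CPM in controls and 1081 CPM in sedentary pain. Aldoa had 19886 and 19401 CPM, with sedentary pain samples from 13386 to 28333 CPM, wider than the controls. Tpi1, triosephosphate isomerase, had 2771 and 2137 CPM, and its adjusted p was 0.161.

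In lower glycolysis 1 of 7 genes passed, or 14.3%, against 33.5% of all genes. Gapdh, which makes the first high-energy phosphate of the pathway, was read at 502, 506, 302 and 478 CPM in the female controls and 373, 300.4, 271 and 149 CPM in female sedentary pain. The groups overlapped, through control replicate 3. Gapdh fell to 0.604 of control (95% interval 0.413 to 0.886; log2 fold change -0.73 ± 0.25 SE, adjusted p = 0.0448). It has the largest adjusted p of the 11 calls and passed in 7 of 23 alternatives. Of the 100-base stretches of its longest annotated transcript, 18.2% also occur in other annotated genes, 72 in number, so its reads may be split.

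Pgk1, phosphoglycerate kinase, did not pass at 995, 929, 757 and 825 CPM in controls and 839, 709.7, 613 and 498 CPM in sedentary pain (log2 fold change -0.42 ± 0.17 SE, adjusted p = 0.0744). The muscle mutase Pgam2 stood at 3012, 2595, 2346 and 2141 and 2867, 4585, 1502 and 2316 CPM (log2 fold change 0.14 ± 0.32 SE, adjusted p = 0.744), and its widespread form Pgam1 at 5.76, 6.48, 12.1 and 12 and 6.39, 5.66, 24.7 and 18.9 CPM (log2 fold change 0.6 ± 0.45 SE, adjusted p = 0.3). Among the sedentary pain samples, replicate 2 had the most Pgam2, and replicates 3 and 4 had the most Pgam1. Eno3 had 7845, 7099, 5933 and 6708 CPM in the controls and 6703, 7559, 3703 and 3722 CPM in sedentary pain (log2 fold change -0.36 ± 0.25 SE, adjusted p = 0.262). Eno1, the enolase of most other cells, had 85.9, 73.7, 189 and 148 and 89.1, 180.01, 188 and 346 CPM (log2 fold change 0.67 ± 0.39 SE, adjusted p = 0.192). As with Pfkl, female control replicates 3 and 4 were the high ones for Eno1. Pkm, pyruvate kinase, had means of 3925 and 3822 CPM and a log2 fold change of -0.06. Many stretches of Pgk1 (67%), Eno1 (59%), Pgam1 (39.7%) and Pkm (9.82%) also occur in other annotated genes, and their levels are uncertain for that reason.

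None of the 3 genes around fructose bisphosphate passed. Pfkfb3, which makes the activator of phosphofructokinase, was read at 271, 309, 225 and 225 CPM in the female controls and 206, 147, 179 and 133 CPM in female sedentary pain. The groups did not overlap, as for 26.3% of all genes tested, but the adjusted p was 0.0865. Pfkfb1, a sister enzyme made in liver and muscle, had 44.7, 48.6, 49.1 and 38.2 and 42, 38.3, 22.7 and 22.1 CPM (log2 fold change -0.55 ± 0.22 SE, adjusted p = 0.0731). Its sedentary pain samples were split, with replicates 3 and 4 low. Fbp2, the muscle fructose bisphosphatase that runs the step in reverse, had means of 100.03 ± 18.8 and 84.7 ± 36.8 CPM (SD, n = 4).

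All 9 glycogen genes had negative log2 fold changes, the smallest -0.006, as had 7442 of the 14511 genes tested. Of the 9, 3 passed, all lower, or 33.3%, against 33.5% of all genes in either direction and 13.9% lower. These are the 3 subunits of phosphorylase kinase on the list. Phkb, its beta subunit (ENSMUSG00000036879, chr8:85840959-86061376, plus strand), was read at 481, 556, 333 and 469 CPM in the female controls and 325, 134, 242 and 104 CPM in female sedentary pain. The groups did not overlap, and replicates 2 and 4 were the lowest. Phkb fell to 0.434 of control (95% interval 0.266 to 0.707; log2 fold change -1.2 ± 0.32 SE, adjusted p = 0.0178). Phka1, the muscle alpha subunit (ENSMUSG00000034055, chrX:102513975-102644246, minus strand), had 1087, 1188, 756 and 968 CPM in controls and 845, 627, 665 and 399.8 CPM in sedentary pain. The groups overlapped through control replicate 3 and sedentary pain replicate 1, and Phka1 fell to 0.627 of control (log2 fold change -0.67 ± 0.22 SE, adjusted p = 0.0351). Phkg1, the catalytic subunit of muscle, fell to 0.685 of control, from 621 ± 89.5 to 430.4 ± 96.1 CPM (SD, n = 4; edgeR adjusted p = 0.0373). Phka1 and Phkg1 passed in 13 and 9 of 23 alternatives.

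The other 6 glycogen genes did not pass. Ppp1r3a, the subunit that holds protein phosphatase 1 on glycogen in muscle, had the most negative value of the list, with 287, 302, 164 and 267 CPM in controls and 204, 47.7, 153 and 37.6 CPM in sedentary pain (log2 fold change -1.22 ± 0.49 SE, adjusted p = 0.0705). Replicates 2 and 4 were below all controls, replicate 3 just below them and replicate 1 inside their range. Ppp1r3c, a related targeting subunit, was lower in all 4 sedentary pain samples than in any control, at 449, 455, 494 and 343 against 538, 496, 531 and 1388 CPM, with an adjusted p of 0.0635. Pygm had means of 9145 ± 1235 and 6979.9 ± 2274 CPM (SD, n = 4). Gyg, glycogenin, which primes new glycogen, had 417 and 338 CPM. Gbe1, the branching enzyme, had 47.2 and 37 CPM. Ugp2, which makes the UDP-glucose that is built in, had 661 and 666 CPM.

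RefSeq promoter windows (GRCm38.p6), 50 in all, were matched to 33 of the 34 genes, and motifs were searched in the 250 bases before the start. The site of the muscle factor MEF2, in which the middle 4 of 10 bases are each A or T and which reads alike on both strands, is in 1 window, that of Ppp1r3a, or 2% of the windows against 0.508% of all 32851 windows. A CACGTG E-box is in 12% of the windows of the list, on either strand, and 6.02% of all. ACGTG, the core of the hypoxia factor site that is contained in that E-box, is in 34% and 16.6%. A nuclear receptor half-site, AAGGTCA, is in 4% and 4.08%. By gene, the E-box is in 6 and ACGTG in 14 of the 33. Windows of 1 gene can overlap, as for Aldoa, so 1 site can count more than once. In 40 of the 50 windows the bases after the start matched an annotated transcript of the gene. The shares were not tested. A match is a description of letters and not evidence of binding. The 250 bases upstream of Ppp1r3a (chr6:14755275-14755524, minus strand), in no annotated exon, are printed because they hold the MEF2 letters, in capitals, and those of Gpd1l (chr9:114933988-114934237, minus strand, in no annotated exon) because it is the only one of the 10 genes that fell with an E-box in a window, also in capitals (Gpd1 has no window here).

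Ppp1r3a: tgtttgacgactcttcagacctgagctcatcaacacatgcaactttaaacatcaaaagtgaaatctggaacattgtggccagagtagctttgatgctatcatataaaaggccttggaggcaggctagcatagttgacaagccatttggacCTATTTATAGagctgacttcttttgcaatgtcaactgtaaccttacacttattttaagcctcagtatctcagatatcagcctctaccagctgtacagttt

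Gpd1l: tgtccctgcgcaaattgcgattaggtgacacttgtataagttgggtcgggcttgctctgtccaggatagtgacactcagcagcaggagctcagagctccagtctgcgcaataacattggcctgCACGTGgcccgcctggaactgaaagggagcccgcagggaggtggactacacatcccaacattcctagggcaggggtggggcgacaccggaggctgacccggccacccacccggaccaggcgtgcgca

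The glycerol 3-phosphate dehydrogenases were the role in which every gene passed, 3 of 3, all lower, though Gpd1l passed in only 9 of 23 alternatives. Of all genes 33.5% passed in either direction and 13.9% lower. Gpd1 (ENSMUSG00000023019, chr15:99717515-99725005, plus strand) encodes the cytosolic enzyme, which passes electrons from glycolysis to glycerol 3-phosphate. It was read at 1201, 1068, 913 and 1093 CPM in the female controls and 651, 577, 563 and 386 CPM in female sedentary pain. The highest sedentary pain sample was below the lowest control. Gpd1 fell to 0.503 of control (95% interval 0.381 to 0.665; log2 fold change -0.99 ± 0.18 SE, adjusted p = 0.0041). Gpd2 (ENSMUSG00000026827, chr2:57237635-57370719, plus strand), the mitochondrial partner that hands those electrons to the respiratory chain, had 302, 352, 233 and 308 and 238, 129, 159 and 97.2 CPM. The groups overlapped through control replicate 3 and sedentary pain replicate 1, and Gpd2 fell to 0.516 of control (log2 fold change -0.95 ± 0.24 SE, adjusted p = 0.0128). Gpd1l, a cytosolic relative, changed least, from 40.1, 41.7, 37.6 and 40.3 to 36.8, 32.7, 31.5 and 30.7 CPM, without overlap (log2 fold change -0.3 ± 0.1 SE, adjusted p = 0.0366).

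**Figure D3:**
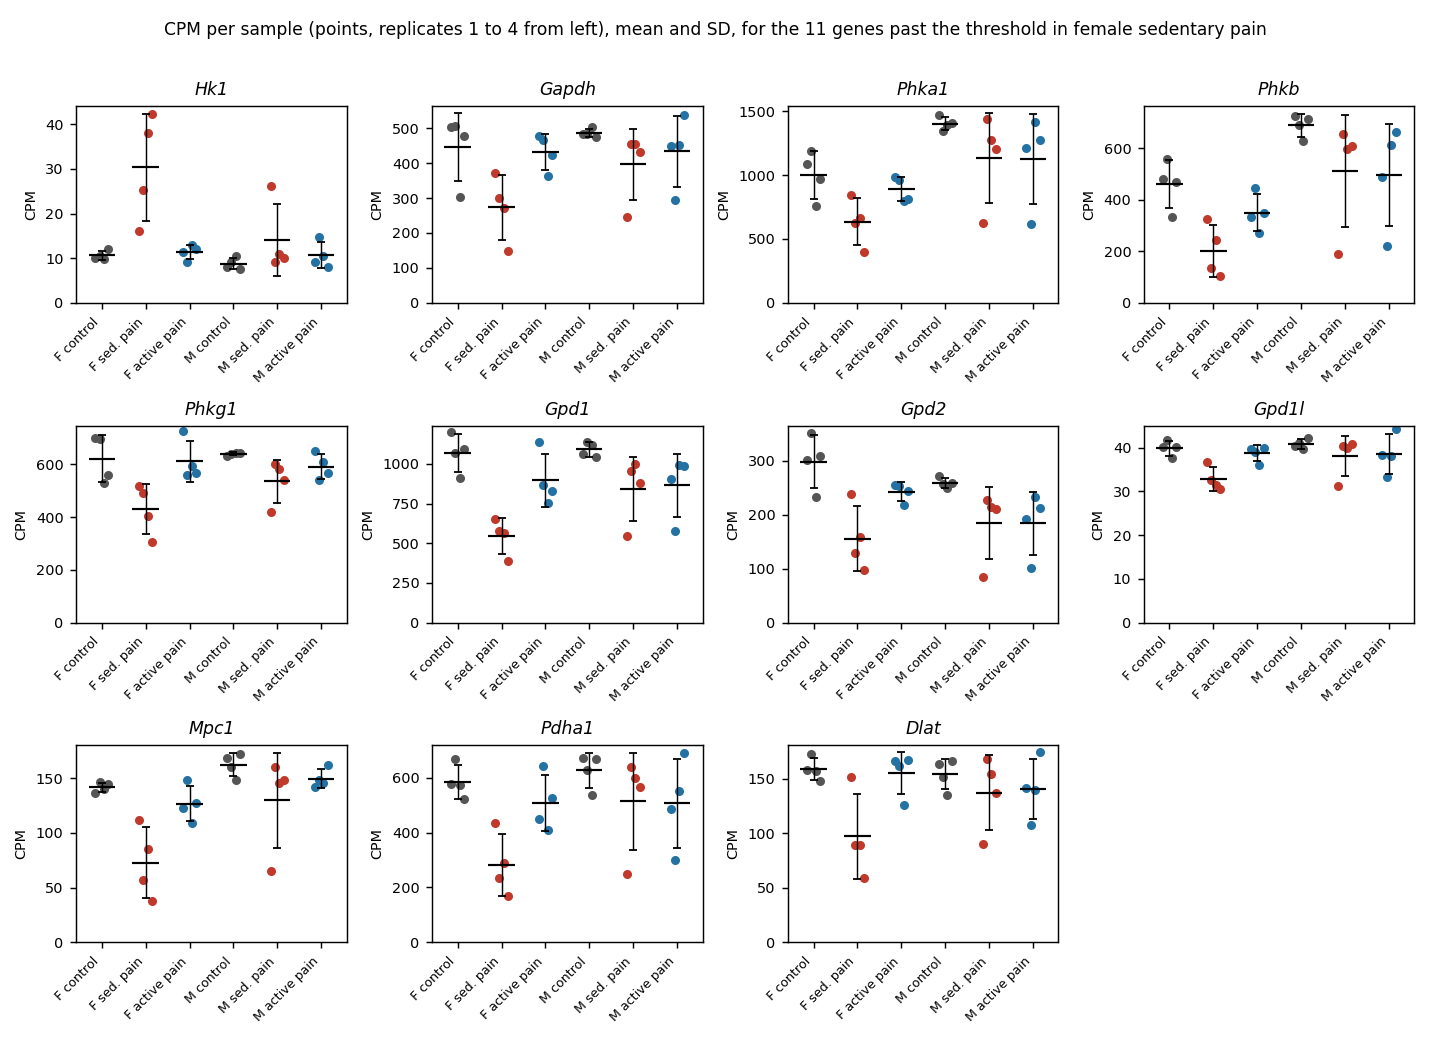
CPM of the 11 genes past the threshold in female sedentary pain, in all 6 groups; points are samples, with replicates 1 to 4 from left, the long bar is the mean and the whiskers 1 SD (n = 4). The female sedentary pain samples of Gpd1 lie between 386 and 651 CPM, below every female control.

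At the entry of pyruvate into the mitochondrion, all 6 genes had negative log2 fold changes, as had 7442 of the 14511 genes tested. Of the 6, 3 passed, all lower, or 50%, against 33.5% of all genes in either direction and 13.9% lower. Pdha1 (ENSMUSG00000031299, chrX:160122209-160138413, minus strand), the catalytic alpha subunit of pyruvate dehydrogenase, was read at 577, 669.8, 573 and 521 CPM in the female controls and 436, 236, 290.02 and 168 CPM in female sedentary pain. There was no overlap, and Pdha1 fell to 0.478 of control (95% interval 0.323 to 0.706; log2 fold change -1.07 ± 0.26 SE, adjusted p = 0.0117). Mpc1 (ENSMUSG00000023861, chr17:8282904-8297661, plus strand), a subunit of the pyruvate carrier of the inner membrane, had 137, 146, 139.7 and 144 and 111, 56.8, 85.5 and 37.4 CPM. Its controls were tightly grouped and its sedentary pain samples spread, all below them (log2 fold change -0.98 ± 0.27 SE, adjusted p = 0.0187). Dlat, the acetyl transferase of the complex, fell to 0.605 of control, from 158, 172, 157 and 148 to 152, 89.2, 88.9 and 58.8 CPM, with replicate 1 inside the control range (log2 fold change -0.72 ± 0.23 SE, adjusted p = 0.0344), and passed in 12 of 23 alternatives. Pdhb, the beta subunit that pairs with Pdha1, had means of 288 ± 49 and 239 ± 62.1 CPM (SD, n = 4) and did not pass. The same held for Mpc2, the partner of Mpc1, at 169 and 124 CPM, and for Pdk2, a kinase that switches the complex off, at 597 and 461 CPM. In the longest annotated transcript of Mpc1, 18.8% of 100-base stretches also occur in 1 other annotated gene.

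The 4 female sedentary pain samples were not alike. Taken over the 34 genes, the median deviation from the female control mean was -0.13, -0.26, -0.69 and -0.84 on the log2 scale in replicates 1 to 4. Replicates 3 and 4 carried the low values of Pfkm, Tpi1, Eno3, Pygm, Pfkfb1 and Mpc2, and replicates 2 and 4 those of Phkb, Ppp1r3a, Pdha1 and Mpc1. Replicates 3 and 4 had the most macrophage and monocyte marker reads and the fewest fast fibre marker reads (151977 and 140396 CPM), and replicates 2 and 4 the lowest mitochondrial shares. Replicates 2 and 4 also had the most neutrophil marker reads. Their sums in replicates 1 to 4 were 21.4, 254, 39 and 57.3 CPM, against 0.898 to 3.76 CPM in female controls. The part of these differences in the results was not tested. Without replicate 1 the number of members called was 17, with 44.9% of all genes called. It was 6 without replicate 3 and without replicate 4, with 33.02% and 16.9% of all genes. It was also 6 without control replicate 1, 2 or 4, with 20.9%, 19.2% and 21.3% of all genes. Without both controls high in adipocyte markers it was 6, 1 higher and 5 lower, with 16.5% of all genes. With replicates 1 and 2 alone, or with 1 surrogate variable in the fit, no member passed, at 7 and 5 members with an unadjusted p under 0.05, and 1.67% and 0.786% of all genes did.

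**Figure D4:**
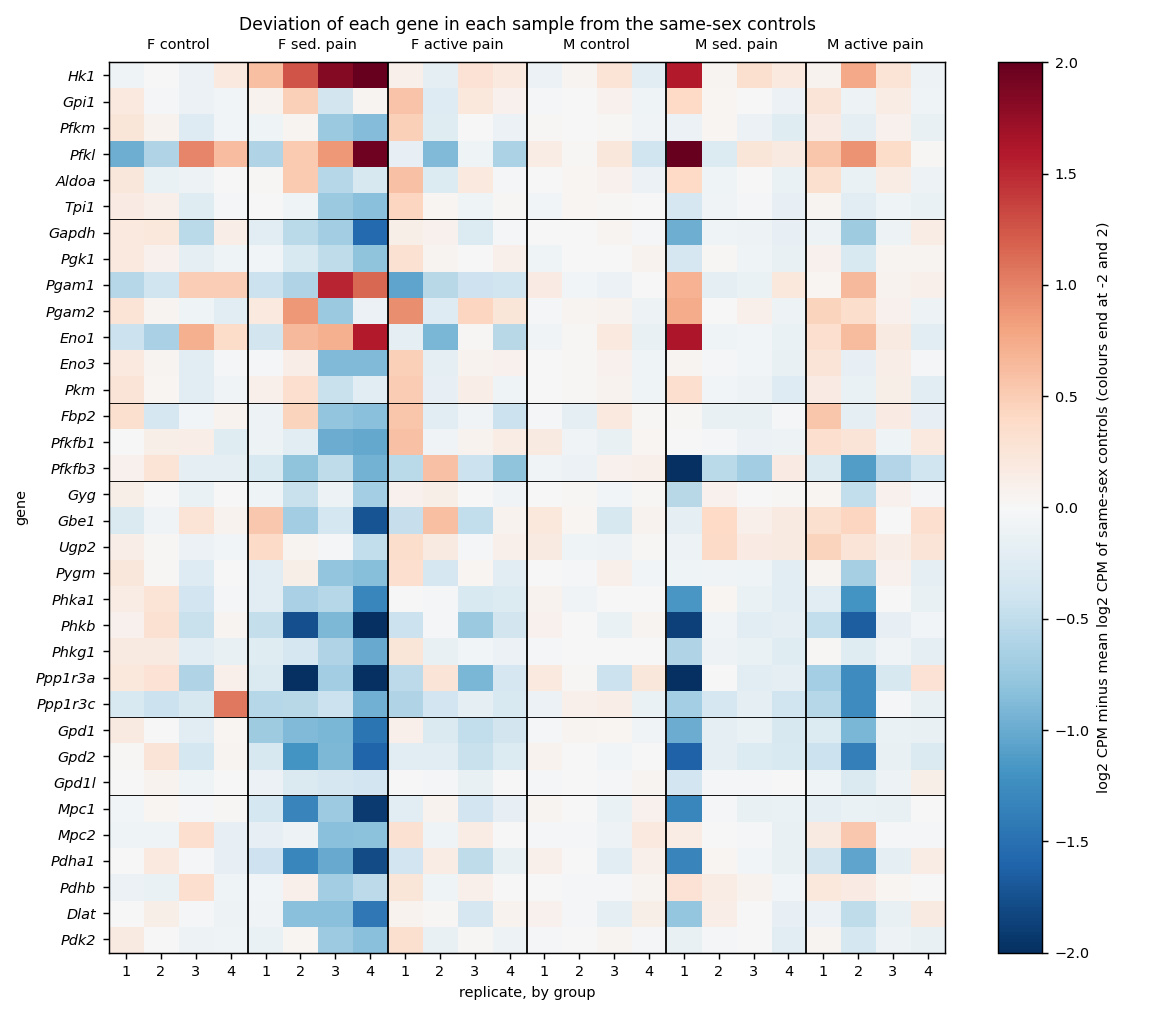
Rows are the 34 genes by role and columns the 24 samples; colour is log2 CPM minus the mean log2 CPM of the same-sex controls, red higher and blue lower, and ends at -2 and 2. Phkb, Ppp1r3a, Pdha1 and Mpc1 are dark blue in female sedentary pain replicates 2 and 4 and in male sedentary pain replicate 1, where Phkb has 134, 104 and 188 CPM.

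Active pain against control in females asks what remained of the difference in mice that had run before the procedure. No member passed the edgeR test, 0 had an unadjusted p under 0.05, and DESeq2 called 0. By edgeR no gene of the 14511 passed (0.0%), and DESeq2 called 125, 84 higher and 41 lower. By sample values, no member had groups apart, against 5.44% of all genes (3.6% higher and 1.83% lower). The median log2 fold change of the 34 genes was -0.02. Hk1 stood at 11.3, 9.21, 13 and 12.1 CPM, overlapping its controls (log2 fold change 0.1 ± 0.25 SE, adjusted p = 0.922). Gpd1 was at 1135, 868, 754 and 828 CPM, Gpd2 at 256, 254, 218 and 244 CPM and Pdha1 at 449, 643, 411 and 525 CPM. Each of these groups overlapped the controls. The 95% interval of the log2 fold change was -0.65 to 0.14 for Gpd1, -0.76 to 0.35 for Pdha1 and -1.09 to 0.30 for Phkb, which leaves room for changes of some size in either direction. Among the genes with the widest intervals were the low Pfkl and Pgam1, at 18, 10.9, 19 and 12.9 and 4.11, 5.82, 6.47 and 6.5 CPM.

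Between the female pain groups, which asks what running before the procedure was accompanied by, 4 members passed. Against sedentary pain, active pain had less Hk1 and more Gpd1, Pdha1 and Pfkfb1. Of all genes 11.9% passed, 2.51% higher and 9.41% lower, and 11.8% of the list did, which is near the background. Hk1 fell to 0.38 of its level in sedentary pain (95% interval 0.26 to 0.555; log2 fold change -1.4 ± 0.25 SE, adjusted p = 0.0328). Gpd1 rose 1.67-fold (log2 fold change 0.74 ± 0.18 SE, adjusted p = 0.033), Pdha1 1.82-fold (log2 fold change 0.86 ± 0.26 SE, adjusted p = 0.0499) and Pfkfb1, at 67.4, 42.6, 47.4 and 49.9 CPM in active pain, 1.67-fold (log2 fold change 0.74 ± 0.22 SE, adjusted p = 0.0498). Groups did not overlap for Hk1, Gpd1 and Pfkfb1, nor for Mpc2, Pgk1, Gyg and Phkg1, which did not pass. Of all genes 11.8% had groups apart, 5.42% higher and 6.37% lower. In the same comparison 9 of 12 macrophage and monocyte markers fell (median log2 fold change of the 12, -2.47). None of the 7 slow fibre markers passed, but all 7 had positive values (median 2.64) and an unadjusted p under 0.05. Summed, these 7 were at 342, 315, 219.6 and 143 CPM in sedentary pain and 92.2, 724, 3388 and 1474 CPM in active pain, with active pain replicate 1 the lowest of the 8. The part of these markers in the result was not tested. This comparison shares the sedentary pain samples with the one above, so the members called in both do not support each other.

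The other named members did not pass between the pain groups. Phkb was at 335, 444, 271 and 349 CPM (adjusted p against sedentary pain 0.107 by edgeR), Phka1 at 982, 961, 799 and 816 CPM (0.133) and Mpc1 at 122, 148, 109 and 127 CPM (0.0623). Pgk1 stood at 1079.6, 908, 866 and 933 CPM, Pfkfb3 at 176, 382, 189 and 146 CPM and Pfkm at 5872, 3586, 4228 and 3897 CPM, and none passed. Replicate 2 was the high sample for Pfkfb3 and replicate 1 for Pfkm. The count of 4 rested on single samples. No member passed without active pain replicate 1, 2 or 4, or without sedentary pain replicate 3 or 4, with 11 to 15 members at an unadjusted p under 0.05. Of all genes 3 passed without sedentary pain replicate 3 and 0 without each of the other 4 samples. Without active pain replicate 3 or any 1 control 2 passed, with 10.43% of all genes without the former and 7.901% to 9.41% without a control, and without sedentary pain replicate 1 the number was 16, with 29.04% of all genes called. DESeq2 called 12 members, 8 higher and 4 lower, and 20.7% of all genes (914 higher and 2096 lower). No member and no gene at all passed when only the 2 groups were fitted or without both controls high in adipocyte markers, while 15 and 18 members had an unadjusted p under 0.05.

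In males no member passed in any of the 3 comparisons, by edgeR or by DESeq2. By edgeR the background was 0.0% of the 14404 genes in each. By DESeq2 it was 1.87% in sedentary pain against control (260 genes higher and 10 lower), 0.882% in active pain against control (117 higher and 10 lower) and 0 genes between the pain groups. An unadjusted p under 0.05 was found for 0 members in sedentary pain against control, 1 in active pain against control and 0 between the pain groups. Leaving out sedentary pain replicate 1 and active pain replicate 2 together left the 3 counts at 0, with 4, 5 and 1 members at an unadjusted p under 0.05. Of 14458 genes 2, 8 and 0 then passed, and 1029, 2009 and 440 had an unadjusted p under 0.05. The median log2 fold change of the list was -0.08 in sedentary pain and -0.05 in active pain, each against control, and 0.001 between the pain groups. Without these 2 samples it was -0.07, 0.05 and 0.056, so the sign in active pain against control turned.

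The genes lower in female sedentary pain had negative values in male sedentary pain too, and sedentary pain replicate 1 was the lowest male of that group for each of the 10. Gpd1 was read at 1065, 1139, 1119 and 1043 CPM in the male controls, 548, 953, 997 and 877 CPM in sedentary pain and 903, 576, 996 and 984 CPM in active pain. Both pain groups were below all controls, and the lowest samples were sedentary pain replicate 1 and active pain replicate 2 (log2 fold change -0.35 ± 0.21 SE, adjusted p = 0.617 in sedentary pain). Gpd2 had 271, 257, 249 and 259.5 CPM in controls, 84.7, 228, 214 and 211 CPM in sedentary pain and 192, 101, 234 and 212 CPM in active pain, again with no overlap with controls and an adjusted p of 0.631 and 0.634. The other samples of both pain groups were below all controls for Gpd1 and Gpd2 too. Groups were also apart in sedentary pain for Phkg1, Gapdh, Pygm and Ppp1r3c, all lower, which with Gpd1 and Gpd2 makes 6 members against 8.07% of all genes (3.95% higher and 4.12% lower). In active pain Pfkfb3, Gpd1 and Gpd2 were apart, all lower, against 10.4% of all genes (6.34% higher and 4.06% lower), and between the pain groups no member was, against 0.646% (0.437% higher and 0.208% lower).

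Several members showed the male split more sharply. Phkb stood at 727, 689, 626 and 714 CPM in the male controls, 188, 655, 596 and 607 CPM in sedentary pain and 489.7, 219.5, 614 and 662 CPM in active pain. Phka1 stood at 1474, 1343, 1395 and 1405, 628, 1439, 1275 and 1202 and 1211, 615, 1416 and 1273 CPM, and Pdha1 at 674, 629, 538 and 669, 251, 640.3, 599 and 566 and 486, 299.99, 553 and 691 CPM. In these genes sedentary pain replicate 1 and active pain replicate 2 were the lowest of their group. Mpc1 was at 168, 160.5, 148 and 172 CPM in controls, 65.6, 159.8, 146 and 148 CPM in sedentary pain and 142, 148, 146 and 162 CPM in active pain, so that here only sedentary pain replicate 1 stood low. Hk1 was at 8.08, 9.09, 10.5 and 7.48, 26.1, 9.1, 10.9 and 10.004 and 9.17, 14.7, 10.5 and 8.11 CPM. The same sedentary pain sample was the high one for Hk1, as it was for the macrophage and monocyte markers. That sample also had 300.1 CPM of neutrophil markers, against 0.664 to 5.53 CPM in male controls, and the part of these cells in the result was not tested.

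The glycolytic enzymes gave no call in males either. Pfkm was read at 4587, 4539, 4547 and 4300.5 CPM in controls, 4130.5, 4594, 4142 and 3788 CPM in sedentary pain and 5016, 3917, 4758 and 4055 CPM in active pain. Eno3 was read at 6193, 6318, 6594 and 5886, 6486, 6074, 5985 and 5615 and 7477, 5569, 6822 and 6099.9 CPM, and Pgam2 at 2184, 2317, 2338 and 2081, 3709.8, 2204, 2391 and 2081 and 3041, 2839.7, 2369 and 2082 CPM. All of these groups overlapped. Pgk1 had 813, 862, 868 and 907, 680.2, 874, 808 and 781 and 918, 701, 897 and 893 CPM, and Pfkfb1 54.1, 45.4, 42.8 and 49, 47.2, 46.7, 43.9 and 44.6 and 59.9, 57, 45.1 and 54.5 CPM. Pfkfb3 was more variable, with 499.9, 486, 561 and 568 CPM in controls, 130.03, 362, 326 and 593 CPM in sedentary pain and 432, 243, 351 and 399 CPM in active pain. Sedentary pain replicate 4 was above all controls and replicate 1 below every other male. The low Pfkl was at 7.78, 7.16, 8.21 and 5.31, 29.3, 5.82, 8.27 and 7.97 and 10.3, 13.2, 9.06 and 7.12 CPM, Eno1 at 60.5, 64.8, 73.3 and 57.9, 197, 60.4, 61.5 and 58.1 and 80.8, 99.3, 72.4 and 54.4 CPM, and Pgam1 at 6.14, 5.24, 5.02 and 5.5, 8.8, 4.78, 4.98 and 6.33 and 5.6, 8.56, 5.74 and 5.85 CPM. Sedentary pain replicate 1 was the highest male for all 3 of these genes.

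Whether a change differed between the sexes was tested in 1 fit over all 24 samples. No member passed in any of the 3 tests by edgeR or by DESeq2. Of the 15103 genes 0.0% passed in each by edgeR, and DESeq2 called 15 for sedentary pain against control, 3 for active pain against control and 133 between the pain groups. For sedentary pain against control 1 member had an unadjusted p under 0.05, for active pain against control 0, and between the pain groups 4. For Gpd1 the change in females minus that in males was -0.6 ± 0.28 SE on the log2 scale in sedentary pain (95% interval -1.18 to -0.02; edgeR adjusted p = 0.498). For Hk1 the same difference was 0.85 ± 0.42 SE (-0.04 to 1.73; edgeR adjusted p = 0.544). The 11 calls in females and 0 in males are thus not shown to differ. Without both males that stood apart, 2 members passed the test of the difference in sedentary pain, 1 in each direction, with 3.84% of all genes. Between the pain groups 4 passed without male sedentary pain replicate 1, with 14.15% of all genes, and 1 without female sedentary pain replicate 1, with 4.04% of all genes.

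Controls of the sexes were compared as a baseline, and 1 member differed. Fbp2 was read at 123, 78, 95.2 and 104 CPM in the female controls and 48.7, 43.6, 56.5 and 50.1 CPM in the male controls. No male control reached the lowest female one, and Fbp2 in males was 0.497 of the female level (95% interval 0.348 to 0.71; log2 fold change -1.01 ± 0.25 SE, adjusted p = 0.0278). Of all genes 2.83% passed, 1.54% higher and 1.28% lower in males. Groups were apart for 9 of the 34, against 22.3% of all genes (13% higher and 9.3% lower): Pfkfb3, Phka1, Phkb and Mpc1 were higher in males, and Eno1, Pfkl, Pdhb, Fbp2 and Gbe1 lower. Adipocyte markers were lower in male controls, at 135 to 643 CPM against 280.4 to 5730.1 CPM, with 3 of 8 passing, and their part in the result was not tested. The call ended without female control replicate 1, 3 or 4, without male control replicate 1, 2 or 4, and without both female controls high in adipocyte markers (adjusted p = 0.0724 to 0.229). It also ended with the GC and length correction, alone (adjusted p = 0.086 by edgeR) or with a replicate block (0.0949), and with replicates 1 and 2 only (0.842), which makes 10 of 36 alternatives.

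The ratio of a muscle enzyme to the form most other cells make does not depend on library scaling, and it was compared for 3 pairs in 6 comparisons. The log2 ratio of Pfkm to Pfkl was 8.94, 8.38, 6.49 and 7.04 in the female controls, 8.24, 7.25, 6.09 and 4.9 with sedentary pain and 8.35, 8.36, 7.8 and 8.23 with active pain. The groups overlapped, with sedentary pain differing from controls by -1.09 on the log2 scale (exact two-sided permutation test, p = 0.286, adjusted over 18 tests 0.571). The log2 ratio of Eno3 to Eno1 was 6.51, 6.59, 4.98 and 5.5 among controls, 6.23, 5.39, 4.3 and 3.43 with sedentary pain and 6.56, 6.63, 5.94 and 6.53 with active pain. Active pain was higher than sedentary pain by 1.58, with 3 of 4 active samples above all sedentary ones (exact permutation p = 0.0571, adjusted 0.514). For Pgam2 to Pgam1 the values were 9.02, 8.64, 7.6 and 7.48, 8.81, 9.65, 5.93 and 6.93 and 10.17, 8.49, 9.02 and 8.83, which overlapped in all 3 pairings.

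In males the log2 ratio of Pfkm to Pfkl was 9.2, 9.3, 9.11 and 9.66 among controls, 7.14, 9.62, 8.96 and 8.89 with sedentary pain and 8.92, 8.22, 9.03 and 9.15 with active pain. Active pain minus control was -0.49, with 3 of 4 samples below all controls (exact permutation p = 0.0571, adjusted 0.514). For Eno3 to Eno1 the means were 6.61 ± 0.09, 6.22 ± 0.79 and 6.43 ± 0.43 (SD, n = 4), and for Pgam2 to Pgam1 8.67 ± 0.18, 8.70 ± 0.24 and 8.65 ± 0.31. All 18 pairs of groups overlapped. The smallest p that 4 against 4 samples allow is 0.0286, so a difference had to separate the groups fully to come under 0.05 before adjustment, and with 18 tests a single separated pair could not have passed after it.

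**Figure D5:**
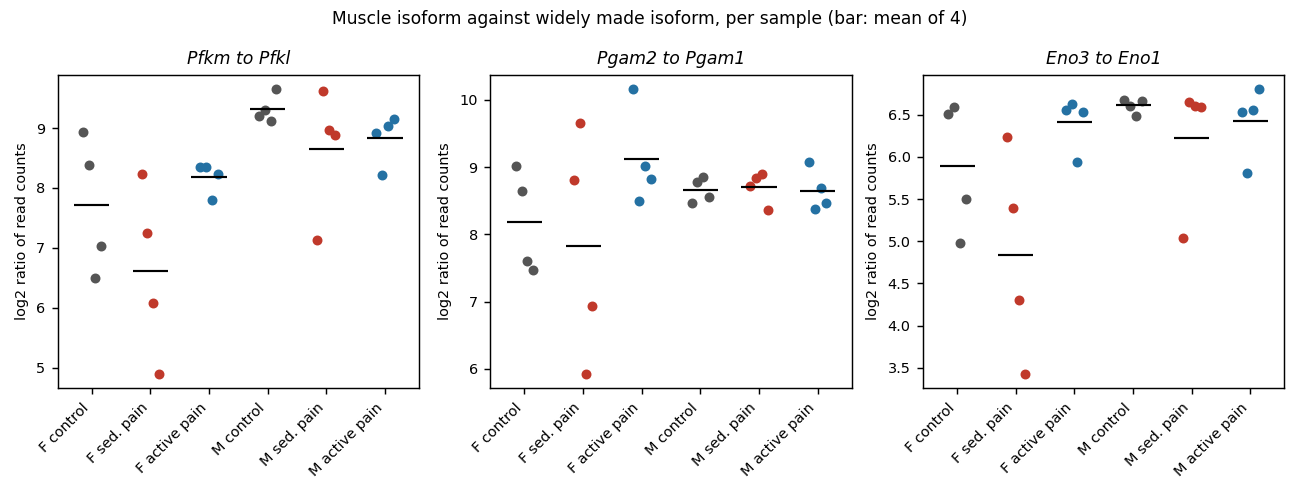
Each point is the log2 ratio of read counts of the muscle form to the widely made form in 1 sample, and the bar the mean of 4. The female sedentary pain samples include the lowest ratio of each panel, 6.23, 5.39, 4.3 and 3.43 for Eno3 to Eno1.

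Other genes of the same pathways, on lists written beside the 34, were tested in the same fits. In female sedentary pain 7 of the 11 other glycolysis genes tested passed, 4 higher and 3 lower, where 33.5% of all genes did. Hk3, the hexokinase of myeloid blood cells, was read at 0.606, 0.294, 0.82 and 1.53 CPM in the female controls and 4.88, 18.2, 69.6 and 118 CPM in sedentary pain (log2 fold change 5.96 ± 1.0 SE, adjusted p = 0.00302). Replicates 3 and 4 again had the most, as they had of the macrophage and monocyte markers. Bpgm, which diverts 1,3-bisphosphoglycerate, fell (log2 fold change -0.74 ± 0.17 SE, adjusted p = 0.00818) and Eno2, the neuronal enolase, rose from 0.26 to 0.664 CPM in controls to 0.983 to 3.5 CPM (log2 fold change 2.05 ± 0.49 SE, adjusted p = 0.0108). Of 19 other glycogen genes tested 7 passed, or 36.8%, near that background, 3 higher and 4 lower. Pgm2l1, glucose 1,6-bisphosphate synthase, fell (-1.22) and Epm2a, the glycogen phosphatase laforin, fell (-1.0) on the log2 scale (adjusted p = 0.00708 and 0.0172 by edgeR).

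Of the 8 other genes around pyruvate dehydrogenase, 4 passed in female sedentary pain, 1 higher and 3 lower. The share of all genes there was 33.5%, with 19.6% higher and 13.9% lower. Pdk3, a kinase that inhibits the complex, rose from a mean of 0.806 to 4.5 CPM (log2 fold change 2.45 ± 0.48 SE, adjusted p = 0.00495), and Pdk1, a sister kinase, fell (log2 fold change -0.78 ± 0.17 SE, adjusted p = 0.00735). Dld, the dehydrogenase that completes the complex with Pdha1 and Dlat, fell too, from 212, 237, 208 and 201 to 174, 78.2, 128 and 66.4 CPM (log2 fold change -0.96 ± 0.27 SE, adjusted p = 0.0203). In female active pain against sedentary pain, where 11.9% of all genes passed, 2 of 11 other glycolysis genes passed (Hk3 lower, Bpgm higher), 0 of 19 glycogen genes and 1 of 8 pyruvate dehydrogenase genes (Pdk3 lower). In female active pain against control and in the 3 male comparisons none of these genes passed. Of the 19 other glycogen genes 2 passed between the controls, where 2.83% of all genes did, 1.54% higher and 1.28% lower in males. Stbd1, a glycogen-binding protein, and Pygl, the liver phosphorylase, were lower in males (log2 fold change -0.94 and -3.36; edgeR adjusted p = 0.000417 and 0.0226).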

How the data were processed

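Counts per gene from left gastrocnemius RNA of 24 mice, in 6 groups of 4, were used as the authors deposited them, as whole-number counts. Per the submitters' processing notes, HISAT2 2.1.0, Salmon 0.9.1, featureCounts and DESeq2 1.24.0 were used with mm10 (GRCm38.p6). Per the labels' protocols, 0.5 µg of total RNA went into stranded TruSeq libraries read in pairs, and whether counting used the strand is not given in the sources used here, so reads of overlapping genes on opposite strands (Aldoa lies across from Fam57b) may be mixed. Libraries held 17612139 to 34039699 counts in files of 54532 genes, of which 54409 matched a symbol in the GENCODE M21 annotation. Aldoa has a second identifier with at most 19 counts in a sample, which was left out.

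Genes with enough counts (edgeR's filterByExpr, minimum count 10) were tested with edgeR 4.0.16 in R 4.3.3, by the robust quasi-likelihood F test with TMM scaling and Benjamini-Hochberg adjustment over all genes tested, at an adjusted p of 0.05. All 34 genes passed the filter. Each sex was fitted with its 12 samples, and sex differences and the comparison of controls with all 24. The standard error is the absolute log2 fold change over the square root of F. Isoform ratios (0.5 added to each count) were tested by exact two-sided permutation over 70 arrangements. The fitting code was tested on simulated counts with known changes.

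Every gene of the list is named by role, and all samples' values are given for the pair per role with the smallest p in any comparison within a sex, for both members of the isoform pairs and for further genes that passed. The genes and all marker and pathway lists were chosen with earlier results of these data known. Markers of slow fibres (0 of 7, all with values below 0), endothelium (2 of 5, lower) and Schwann cells (0 of 4 tested) passed in that number in female sedentary pain, as did 1 of 12 fast fibre markers (lower) and 5 of 6 tested neutrophil markers (higher). Alternatives were RLE scaling, DESeq2 1.42.0, no filter, a GC and length correction, a surrogate variable (sva 3.50.0), the replicate number as a block and subsets of samples. Leaving out the 2 female controls high in adipocyte markers, or the 2 males that stood apart, was chosen after seeing the data. Some genes of the other pathway lists are not reported here.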

Additional observations from a re-analysis of the deposited data

Results flagged for a closer look

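Of 96 sets of 4 samples (16 genes in 6 groups), 9 held a sample whose distance to the nearest other exceeded Dixon's limit. Chance gives about 1 in 20 among independent sets. The 16 genes were read in the same 24 libraries, so the sets are not independent and no excess is read from the 9. Male sedentary pain replicate 1 accounts for 6 of the 9, with 26.08 CPM of Hk1, 29.27 CPM of Pfkl and 196.59 CPM of Eno1, all high, and 188.48 CPM of Phkb, 84.69 CPM of Gpd2 and 65.56 CPM of Mpc1, all low. Male active pain replicate 2 had 700.9 CPM of Pgk1, the lowest of its group, and 8.56 CPM of Pgam1, the highest. Male control replicate 4 had 4300.5 CPM of Pfkm, below 3 controls that lay close together.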

How the results depend on the processing

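RLE scaling left the count of members called in each comparison within 1.5 times the reported one. In female sedentary pain against control (11 called), 23 were called with the GC and length correction and a replicate block (37.04% of all genes), 7 with only the groups compared in the fit (20.1%), 6 without both female controls high in adipocyte markers (16.5%), and 0 with 1 surrogate variable (0.786%) or with replicates 1 and 2 only (1.67%). Leaving out 1 sample gave 6 to 17 (16.9% to 44.9%). With the surrogate variable 114 of all genes passed, and the log2 fold changes of Phka1 (0.0095) and Gapdh (0.081) changed sign. Between the female pain groups (4 called), DESeq2 called 12 (20.7% of all genes), no filter 1 (0.667%), the GC and length correction with the block 19 (20.13%), replicates 3 and 4 only 10 (14.97%), and 0 were called with the surrogate variable, with replicates 1 and 2 only, with only the groups compared, or without both controls. Leaving out 1 sample gave 0 to 16 (0 to 29.04%). For sex differences (0 called), replicates 3 and 4 only gave 2 in sedentary pain (8.51% of all genes) and 6 between the pain groups (7.71%), the fit without both males gave 2 in sedentary pain (3.84%), and leaving out 1 sample gave 0 to 4 between the pain groups (0 to 14.15%). Between the controls (1 called), DESeq2 gave 3 (4.77% of all genes), the GC and length correction 0 with or without the block (2.57% and 3.03%), the surrogate variable 4 (5.32%), replicates 1 and 2 only 0 (12 of all genes), replicates 3 and 4 only 5 (5.585%), only the groups compared 6 (13.55%), without both controls 0 (0.681%), without both males 3 (5.055%), and leaving out 1 sample 0 to 3 (1.289% to 4.047%). The causes were not tested.

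Residuals of same-numbered samples correlated at 0.109 on average in females and 0.0131 in males, and the lowest was -0.32 and -0.647. A mean over such pairs does not decide whether samples share something tied to the number. In each female group replicates 3 and 4 had more genes with counts than replicates 1 and 2. The female controls had 18954, 18939, 20003 and 20216. In males this held only in the controls. With the replicate number as a block, 11 members were called in female sedentary pain (25.75% of all genes), 5 between the female pain groups (11.23%), 1 between the controls (2.23%) and 0 elsewhere.

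On the plain ratio of counts the sign turned for Pfkm to Pfkl between the male pain groups (-7.18), and for Pgam2 to Pgam1 in female sedentary pain (36.4) and male active pain (0.32). Leaving out 1 sample moved Pfkm to Pfkl between the male pain groups from -0.33 to 0.50 on the log2 scale. For Pgam2 to Pgam1 the range was -0.96 to 0.28 in female sedentary pain, -0.0297 to 0.15 in male sedentary pain against control, -0.16 to 0.0764 for active pain and -0.196 to 0.0403 between the male pain groups. For Eno3 to Eno1 it was -0.53 to 0.0052, -0.31 to 0.0217 and -0.19 to 0.41 in these 3 male comparisons. Without mitochondrial genes the 34 genes took 6.48% of counts in female controls, 6.06% in male controls, 6.15% with male sedentary pain and 6.315% with active pain in males. Of the TMM-scaled library they took 5.84% in male controls, 5.63% in male sedentary pain and 5.72% in active pain. Pfkl and Pgam1, read at few counts, had standard errors of 0.51 and 0.45 on the log2 scale in female sedentary pain against control, and Hk1, the lowest per kilobase, 0.25.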
